A study of Mus musculus with 20 samples.

Results

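The 10 endothelial and blood-brain barrier genes were followed in bulk RNA-Seq of aged mouse brain after stroke. They were chosen by name, with earlier results of these data known, as Cldn5, Ocln, Cdh5, Pecam1, Slc2a1, Mfsd2a, Abcb1a, Plvap, Vwf and Tm4sf1. All 10 were found among the 46078 genes of the count tables. The tissue came from wild type C57BL/6J mice aged 18 months, with permanent occlusion of the distal middle cerebral artery followed by hypoxia (DH stroke). Starting 1 week later, the mice were injected under the skin 3 times per week for 6 weeks, either with sterile PBS as vehicle or with HPBCD (2-hydroxypropyl-β-cyclodextrin, a ring of sugars that binds cholesterol) at 4 g/kg, and brain was collected 7 weeks after stroke. The infarct was taken out, and the tissue next to it (peri-infarct) and the corresponding piece of the other hemisphere (contralateral) were sequenced, giving 4 groups of 5 libraries: vehicle contralateral, vehicle peri-infarct, HPBCD contralateral and HPBCD peri-infarct. All mice had a stroke, so the contralateral piece is the uninjured side of an injured brain and no unoperated group enters here, and the mice were male according to the study's methods. Which mouse received HPBCD rests on the labels alone, since no gene measured here can check it, and the sign of every treatment difference below rests on them too. In peri-infarct libraries labelled HPBCD, 3 of 6 neuron genes were lower and 7 of 8 fibroblast and meninges genes higher than in those labelled vehicle. Of 6 microglia and macrophage genes 1 was called higher, and of 4 astrocyte genes 1. Over all genes tested, 9.00% were called lower and 12.4% higher. HPBCD mice and vehicle mice mean the mice so labelled throughout.

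The vessels of the brain are lined by endothelial cells that are sealed to each other by tight junctions, carry nutrients across by dedicated transporters, pump many drugs back into the blood and take up little fluid by vesicles. Together these properties are called the blood-brain barrier, and stroke is known to open it. Among the genes described, claudin-5 (Cldn5) and occludin (Ocln) are tight junction proteins, VE-cadherin (Cdh5) and PECAM-1 (Pecam1) hold endothelial cells to each other, GLUT1 (Slc2a1) carries glucose, Mfsd2a carries lipids bound to lysophosphatidylcholine and restrains vesicle transport, and Abcb1a is a P-glycoprotein efflux pump. Plvap forms the diaphragms of fenestrated and leaky vessels and is low in mature barrier vessels, von Willebrand factor (Vwf) is the clotting factor stored by endothelium, and Tm4sf1 is a membrane protein of endothelial cells known from growing vessels.

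The libraries held between 14445021 and 22171627 counts in genes (median 19008532), so that 3 counts, taken as the floor, stood for 0.135 to 0.208 CPM (counts scaled to a common library size). Every member lay far above it, with between 103 and 3165 counts in any library, and all 10 passed the filter on low counts in every comparison. HPBCD contralateral replicate 4 stood apart before any comparison, with the lowest depth, 9.5% of its reads in no annotated gene and 8.03% in more than 1 gene, against medians of 5.15% and 4.09%. In HPBCD contralateral replicate 3, the summed level of 8 choroid plexus genes was 649.8 CPM, against 1.81 to 7.06 CPM in the other 4 libraries of that group. Member calls that rest on these libraries are given with and without them.

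Per kilobase of exon, which allows levels to be compared between genes, Cldn5 was the most abundant member in the vehicle contralateral group at 47.8 ± 10.6 CPM per kb (SD, n = 5), followed by Slc2a1 at 30.9 ± 4.81. These first 2 overlapped between libraries. All other members lay below the lowest Slc2a1 library, in the order Mfsd2a (6.75 ± 1.15), Abcb1a (6.49 ± 1.8), Plvap (6.18 ± 1.1), Cdh5 (5.4 ± 1.35), Pecam1 (3.77 ± 0.928), Tm4sf1 (2.59 ± 0.859), Ocln (2.36 ± 0.344) and Vwf (1.38 ± 0.419), and each of these overlapped with the next in that order. Levels below are CPM, which compare 1 gene between libraries.

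The peri-infarct tissue of the libraries labelled HPBCD was where the members differed most (the plot of CPM by library). Between peri-infarct and contralateral tissue of these mice, 6 of 10 members rose (Tm4sf1, Cdh5, Vwf, Abcb1a, Ocln and Slc2a1) and Mfsd2a fell. Of all 16047 genes tested in that comparison, 30.3% were called higher and 24.3% lower at an adjusted p under 0.05 by edgeR's quasi-likelihood test, so calls were common there for any gene. In 5 members (Tm4sf1, Cdh5, Vwf, Abcb1a and Mfsd2a) the 2 groups did not overlap, against 42.5% of all genes. In vehicle mice the same comparison called Tm4sf1 higher and no member lower, against 10.5% and 9.70% of 15801 genes, and every member's groups overlapped, while 13.4% of all genes had groups that did not. The region differences of the members not called there were -0.29 (Cldn5), -0.29 (Plvap), -0.2 (Pecam1), -0.13 (Mfsd2a), -0.092 (Ocln), -0.057 (Cdh5), -0.037 (Abcb1a), -0.035 (Slc2a1) and 0.025 (Vwf) on the log2 scale. The signs of Ocln, Cdh5, Slc2a1, Abcb1a and Vwf turned under at least 1 alternative setting. The median log2 fold change of the members was 0.35 in HPBCD mice and -0.074 in vehicle mice, beside 0.032 and 0.015 over all genes tested. Without HPBCD contralateral replicate 4, 6 of the 7 calls in HPBCD mice remained (Slc2a1 did not, adjusted p = 0.0707), and without replicate 3 of that group 5 remained (Ocln, 0.0705, and Slc2a1, 0.0581, did not). Between the treatments in peri-infarct tissue, 4 members were higher in the libraries labelled HPBCD (Tm4sf1, Abcb1a, Cdh5 and Ocln) and Mfsd2a was lower, against 12.4% and 9.00% of 16224 genes. In 3 of them (Tm4sf1, Abcb1a and Cdh5) the groups did not overlap, against 13.4% of all genes. The members' median there was 0.44, beside 0.014 over all genes. The Ocln and Mfsd2a calls were both lost without vehicle peri-infarct replicate 2, or without HPBCD peri-infarct replicate 3 or 4. With 1 library left out, 5.03% to 32.5% of all genes were called in that comparison. In these bulk samples, fewer cells of a type and less RNA per cell cannot be told apart.

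**Figure D1:**
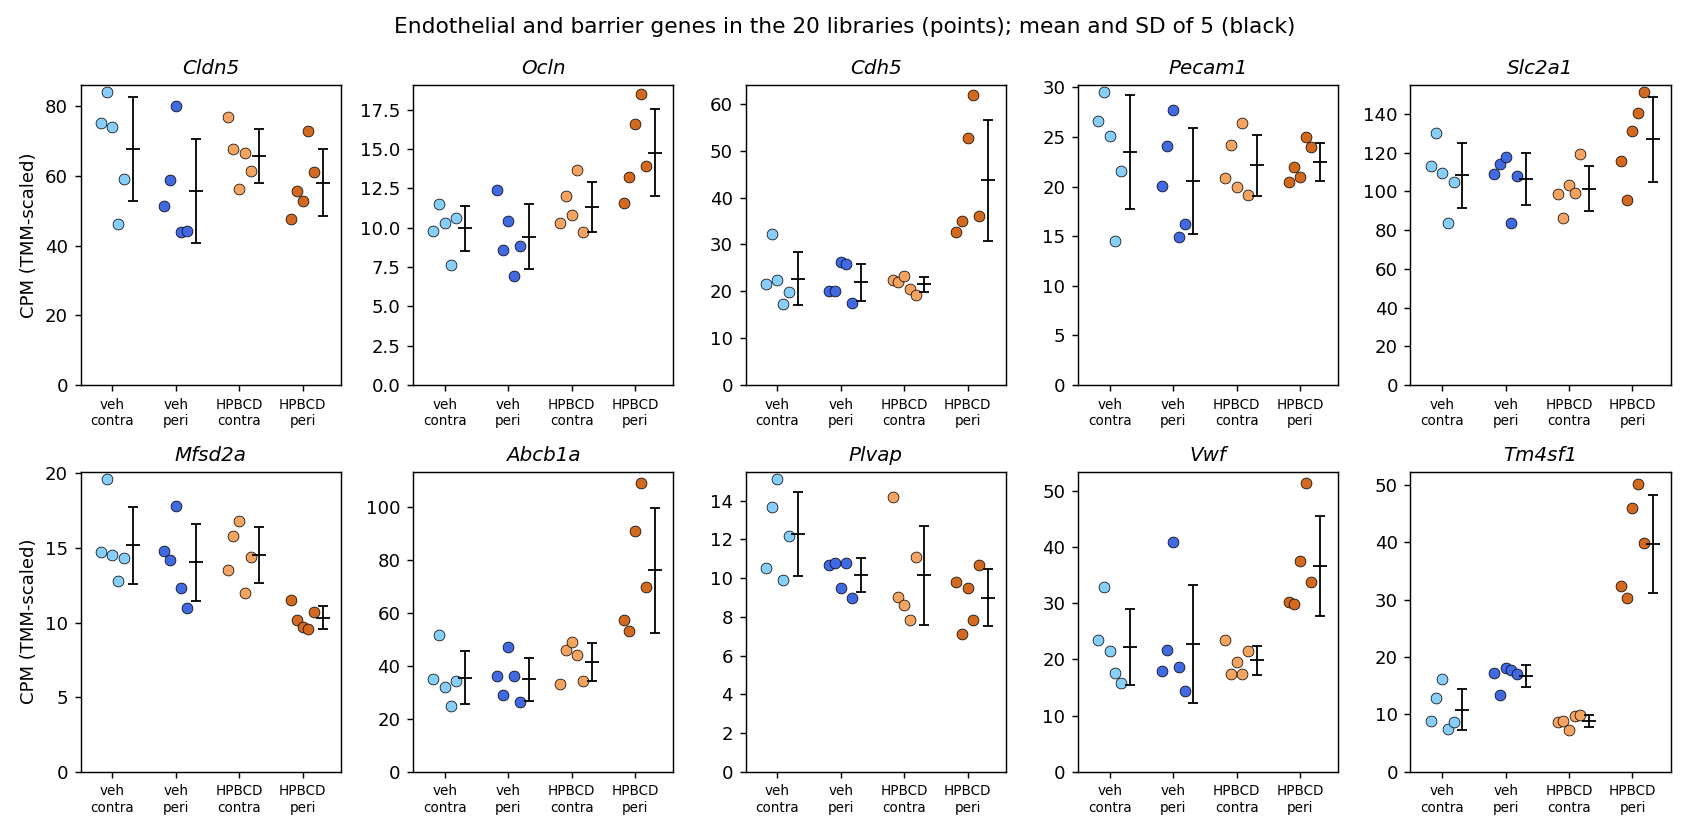
Levels of the 10 genes in CPM (TMM-scaled, y axis from 0) in each of the 20 libraries, by group on the x axis (veh, vehicle; contra, contralateral; peri, peri-infarct). Points are libraries, and the black marks are the mean and SD of 5 libraries. HPBCD peri-infarct libraries lie above the other 3 groups for Tm4sf1, Cdh5 and Abcb1a, while Cldn5, Pecam1 and Plvap overlap in all groups.

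The sequence upstream of the start site is shown for a member that rose (Tm4sf1), 1 that was not called (Cldn5) and 1 that fell (Mfsd2a). RefSeq promoters were at hand for 6 of the 10 members, and these 3 begin directly before the annotated gene. Each is the 250 bases before the start, written 5′ to 3′ on the strand of the gene in the GRCm38.p6 build: chr3:57301989-57302238 on the minus strand for Tm4sf1, chr16:18776597-18776846 on the plus strand for Cldn5 and chr4:122961189-122961438 on the minus strand for Mfsd2a. Capitals mark AGGAAG or CGGAAG on either strand, 2 forms in which sites of ETS factors, the family of ERG and other endothelial regulators, are often found.
Tm4sf1: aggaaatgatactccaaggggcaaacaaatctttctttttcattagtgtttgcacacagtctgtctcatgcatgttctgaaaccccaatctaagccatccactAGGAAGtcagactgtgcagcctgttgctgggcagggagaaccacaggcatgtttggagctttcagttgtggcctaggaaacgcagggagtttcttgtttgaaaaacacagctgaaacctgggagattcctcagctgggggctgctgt
Cldn5: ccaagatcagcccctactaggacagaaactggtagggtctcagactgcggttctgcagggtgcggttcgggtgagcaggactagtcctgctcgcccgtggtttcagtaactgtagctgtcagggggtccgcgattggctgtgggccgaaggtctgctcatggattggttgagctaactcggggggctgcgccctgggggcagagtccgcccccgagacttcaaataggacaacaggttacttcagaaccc
Mfsd2a: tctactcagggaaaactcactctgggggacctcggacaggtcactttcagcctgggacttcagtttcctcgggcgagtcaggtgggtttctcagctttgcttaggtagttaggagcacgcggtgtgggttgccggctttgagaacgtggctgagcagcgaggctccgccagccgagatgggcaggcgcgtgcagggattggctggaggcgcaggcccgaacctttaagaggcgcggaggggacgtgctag
A single such match lay in the Tm4sf1 window and none in those of Cldn5 and Mfsd2a, and 39.2% of 32851 mouse promoter windows of this length held at least 1. Slc2a1 and Ocln, which also rose between regions in HPBCD mice, had 0 matches, Ocln in both of its listed windows, and Abcb1a had 2 in a window that lies at no GENCODE transcript start found. The shorter core GGAA, which is also part of both longer forms, was found 4 times upstream of Tm4sf1, 2 times for Mfsd2a and not for Cldn5, and 93.4% of all windows held it. A match describes the letters and is not a measured site.

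Positions below are those of the genes in GRCm38, from GENCODE. Of the tight junction genes, Cldn5 (ENSMUSG00000041378, chr16:18776847-18778262, plus strand) had 75.2, 83.9, 74.1, 46.1 and 59.0 CPM in the vehicle contralateral libraries and 51.2, 58.9, 80.1, 43.9 and 44.2 CPM in the vehicle peri-infarct libraries. It had 76.8, 67.8, 56.2, 66.6 and 61.3 CPM in the HPBCD contralateral libraries and 47.7, 55.7, 52.8, 72.8 and 61.0 CPM in the HPBCD peri-infarct libraries. All 4 groups overlapped, and no comparison called it. Its log2 fold change between regions was -0.29 (95% interval -0.72 to 0.13, adjusted p = 0.314) in vehicle mice and -0.18 (-0.44 to 0.073, adjusted p = 0.21) in HPBCD mice, and between treatments in peri-infarct tissue it was 0.052 (-0.32 to 0.43, adjusted p = 0.844). Without HPBCD peri-infarct replicate 4, the fall between regions in HPBCD mice passed the test (adjusted p = 0.0333).

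Ocln (ENSMUSG00000021638, chr13:100496507-100552718, minus strand) had 11.6, 13.2, 16.6, 18.5 and 13.9 CPM in the HPBCD peri-infarct libraries, against 12.4, 8.57, 10.4, 6.93 and 8.81 CPM in the vehicle peri-infarct libraries and 10.3, 12.0, 10.8, 13.7 and 9.76 CPM in the HPBCD contralateral libraries. Its vehicle contralateral mean was 9.96 ± 1.45 CPM (SD, n = 5). The HPBCD peri-infarct libraries overlapped with both groups they were compared with at their low end. Ocln rose by 0.64 ± 0.17 (log2, SE, adjusted p = 0.028) with treatment in peri-infarct tissue and by 0.38 ± 0.14 (adjusted p = 0.0359) between regions in HPBCD mice. Both calls depended on single libraries, and the region call was also lost with RLE scaling (adjusted p = 0.0531), with limma voom (0.0663) and without the filter on low counts (0.107). The treatment call was lost without vehicle peri-infarct replicate 2, 4 or 5 or HPBCD peri-infarct replicate 3 or 4 (adjusted p from 0.0523 to 0.0732). The region call was lost without HPBCD peri-infarct replicate 3, 4 or 5 or HPBCD contralateral replicate 1, 2, 3 or 5 (0.0514 to 0.108), while without HPBCD contralateral replicate 4, the library that stood apart, it was 0.46 (adjusted p = 0.02). Occludin is also made by epithelia such as the choroid plexus, whose 8 marker genes summed to 28.7 to 704.4 CPM in HPBCD peri-infarct libraries and 6.51 to 81.7 CPM in vehicle peri-infarct libraries, and the part of these cells in the Ocln result was not tested.

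Cdh5 (ENSMUSG00000031871, chr8:104101625-104144511, plus strand) had 32.7, 35, 52.7, 61.8 and 36.1 CPM in the HPBCD peri-infarct libraries. It had 20.1, 20.1, 26.3, 25.9 and 17.4 CPM in vehicle peri-infarct libraries, 22.5, 22, 23.3, 20.5 and 19.3 CPM in HPBCD contralateral libraries and 21.5, 32.2, 22.5, 17.3 and 19.9 CPM in vehicle contralateral libraries. The lowest HPBCD peri-infarct library was above every library of the other 3 groups, and replicates 3 and 4 were the highest. Cdh5 rose 2.02-fold between regions in HPBCD mice (log2 1.02 ± 0.17 SE, adjusted p = 0.000206) and 1.98-fold between treatments in peri-infarct tissue (0.98 ± 0.19, adjusted p = 0.0131). In vehicle mice the region difference was -0.057 (95% interval -0.43 to 0.32, adjusted p = 0.845). These 2 calls held under every alternative run, with adjusted p of at most 0.000964 and 0.0409.

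Pecam1 (ENSMUSG00000020717, chr11:106654217-106750628, minus strand) was the other adhesion gene and was measured at 23.5 ± 5.78, 20.6 ± 5.36, 22.1 ± 3.05 and 22.5 ± 1.94 CPM (SD, n = 5 each) in vehicle contralateral, vehicle peri-infarct, HPBCD contralateral and HPBCD peri-infarct tissue. The groups overlapped, and the log2 fold change with treatment in peri-infarct tissue was 0.12 (95% interval -0.23 to 0.48, adjusted p = 0.594). Between regions in HPBCD mice it was 0.027 (-0.21 to 0.26, adjusted p = 0.849), and its sign changed with the scaling.

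**Figure D2:**
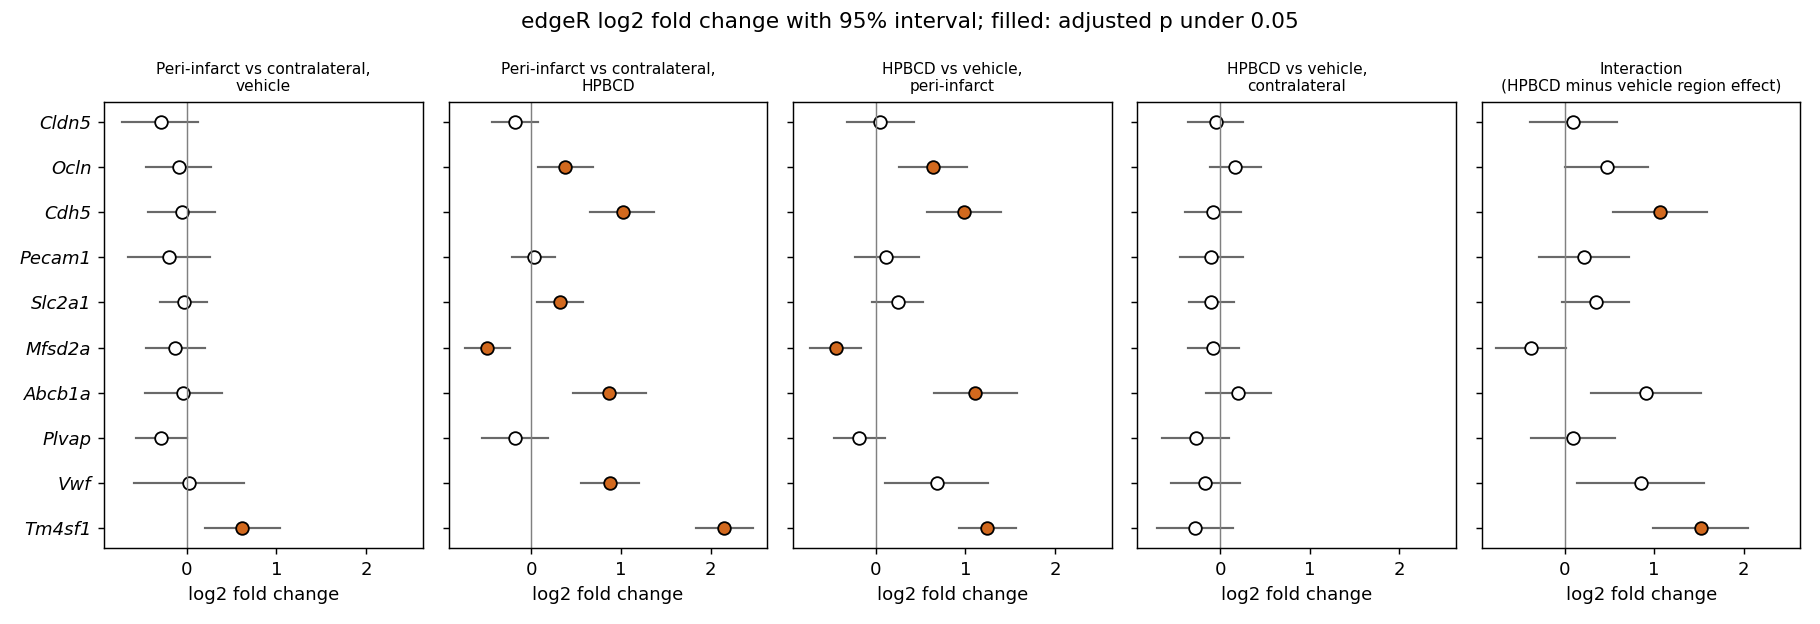
Log2 fold changes of the 10 genes (x axis) in 5 comparisons (panels), as fitted by edgeR. Points are estimates, lines are 95% intervals, and filled points have an adjusted p under 0.05 over all genes tested. Tm4sf1 has the largest value among the members in both region comparisons, in the treatment comparison in peri-infarct tissue and in the interaction, and no point is filled in the contralateral panel.

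Of the transport genes, Abcb1a (ENSMUSG00000040584, chr5:8660077-8748575, plus strand) had 57.1, 53.2, 90.8, 109.0 and 69.6 CPM in the HPBCD peri-infarct libraries, against 36.3, 28.9, 47.0, 36.2 and 26.3 CPM in vehicle peri-infarct libraries. It had 33.2, 45.9, 49.0, 44.2 and 34.3 CPM in HPBCD contralateral libraries and 34.9, 51.7, 32.1, 25 and 34.1 CPM in vehicle contralateral libraries. Every HPBCD peri-infarct library was above all others, and as for Cdh5 replicates 3 and 4 were the highest. Abcb1a rose 2.16-fold with treatment in peri-infarct tissue (log2 1.11 ± 0.21 SE, adjusted p = 0.013) and 1.83-fold between regions in HPBCD mice (0.87 ± 0.19, adjusted p = 0.00168), and both calls held under every alternative run. Abcb1b, the second mouse P-glycoprotein gene, is close in sequence to Abcb1a, so reads that fit both equally were not counted for either and the split between them is uncertain. It was measured at 9.03 ± 1.47 CPM in HPBCD peri-infarct tissue and 3.95 ± 0.464 CPM in HPBCD contralateral tissue (log2 1.19 ± 0.14, adjusted p = 2.02e-05), and its difference with treatment in peri-infarct tissue did not pass the test (0.42 ± 0.18, adjusted p = 0.115). The annotation also places 553 bases of Abcb1a exon under a gene on the opposite strand (Gm42686), which had 35 counts over all libraries against 17876 for Abcb1a.

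Slc2a1 (ENSMUSG00000028645, chr4:119108711-119137983, plus strand), which is also made by astrocytes, had 115.7, 95.7, 131.3, 140.6 and 151.6 CPM in HPBCD peri-infarct libraries and 98.7, 86.5, 103.5, 99.3 and 119.3 CPM in HPBCD contralateral libraries. The groups overlapped. Slc2a1 rose by 0.32 ± 0.12 (log2, SE, adjusted p = 0.0368) between these regions, a call that was lost with RLE scaling (adjusted p = 0.0614), with DESeq2 (0.0526), without the filter on low counts (0.133) and without HPBCD peri-infarct replicate 3, 4 or 5 or HPBCD contralateral replicate 1, 2, 3 or 4 (0.0581 to 0.136). In the vehicle groups its means were 108.2 ± 16.9 (contralateral) and 106.5 ± 13.4 CPM (peri-infarct), and the treatment difference in peri-infarct tissue was 0.25 (95% interval -0.039 to 0.53, adjusted p = 0.181). A gene on the opposite strand (Gm12868) shares 105 exonic bases with Slc2a1 and had 196 counts over all libraries against 42089.

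Mfsd2a (ENSMUSG00000028655, chr4:122946850-122961188, minus strand) was the member that fell. It had 11.5, 10.2, 9.7, 9.56 and 10.7 CPM in the HPBCD peri-infarct libraries, against 13.5, 15.8, 16.8, 12.0 and 14.4 CPM in the HPBCD contralateral libraries and 14.8, 14.2, 17.8, 12.3 and 11 CPM in the vehicle peri-infarct libraries. Its vehicle contralateral libraries had 14.7, 19.6, 14.5, 12.8 and 14.3 CPM. The HPBCD peri-infarct libraries were below all contralateral libraries of either treatment, and 1 vehicle peri-infarct library, replicate 5, lay within their range. Mfsd2a fell by 0.49 ± 0.11 on the log2 scale (SE, adjusted p = 0.00299) between regions in HPBCD mice, under every alternative run. With treatment in peri-infarct tissue it fell by 0.44 ± 0.13 (adjusted p = 0.0366), a call that was lost without vehicle peri-infarct replicate 1 or 2 or HPBCD peri-infarct replicate 3, 4 or 5 (0.0638 to 0.0885).

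Of the genes tied to permeability, clotting and vessel growth, Tm4sf1 (ENSMUSG00000027800, chr3:57285611-57301988, minus strand) differed most, the gene whose upstream sequence with an AGGAAG is printed above. It had 32.4, 30.3, 46.0, 50.2 and 39.9 CPM in the HPBCD peri-infarct libraries and 8.74, 8.78, 7.31, 9.74 and 9.99 CPM in the HPBCD contralateral libraries. It had 17.2, 13.4, 18.1, 17.7 and 17.1 CPM in the vehicle peri-infarct libraries and 8.86, 12.8, 16.1, 7.51 and 8.72 CPM in the vehicle contralateral libraries. The HPBCD peri-infarct libraries were above all others, and the vehicle peri-infarct libraries were above all but vehicle contralateral replicate 3, which overlapped with them. Between regions Tm4sf1 rose 4.45-fold in HPBCD mice (log2 2.15 ± 0.14 SE, adjusted p = 4.96e-07) and 1.54-fold in vehicle mice (0.62 ± 0.19, adjusted p = 0.042), and with treatment in peri-infarct tissue it rose 2.37-fold (1.24 ± 0.14, adjusted p = 0.0101). The call in vehicle mice was lost without vehicle peri-infarct replicate 1, 3, 4 or 5 or vehicle contralateral replicate 1, 4 or 5 (adjusted p from 0.0662 to 0.0971), and the other 2 held under every alternative run. All 8 fibroblast and meninges genes and 2 of 4 astrocyte genes also rose between regions in HPBCD mice. The part of other cells in the Tm4sf1 result was not tested.

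Vwf (ENSMUSG00000001930, chr6:125546774-125686679, plus strand) had 30.1, 29.8, 37.5, 51.4 and 33.8 CPM in the HPBCD peri-infarct libraries, 23.4, 17.4, 19.5, 17.4 and 21.4 CPM in the HPBCD contralateral libraries and 18.0, 21.7, 40.9, 18.6 and 14.4 CPM in the vehicle peri-infarct libraries. Its vehicle contralateral libraries had 23.4, 32.9, 21.5, 17.5 and 15.7 CPM, a region difference in vehicle mice of 0.025 (95% interval -0.59 to 0.64). The HPBCD regions did not overlap, while vehicle peri-infarct replicate 3 and vehicle contralateral replicate 2 reached into the HPBCD peri-infarct range. Vwf rose 1.84-fold between regions in HPBCD mice (log2 0.88 ± 0.15 SE, adjusted p = 0.000295) under every alternative run. With treatment in peri-infarct tissue its difference was 0.68 ± 0.26 (adjusted p = 0.0817), and without vehicle peri-infarct replicate 3 it was 1.0 (adjusted p = 0.0135). Vwf is also carried by platelets, whose 6 marker genes summed to 4.67 to 7.76 CPM in HPBCD peri-infarct, 3.31 to 5.1 CPM in vehicle peri-infarct, 3.58 to 6.07 CPM in HPBCD contralateral and 2.36 to 5.83 CPM in vehicle contralateral libraries, with Gp6 at 0 in the last 3 groups. Of the 3 platelet genes that could be tested, 2 were higher with the HPBCD label in peri-infarct tissue, and their part in the Vwf result was not tested.

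Plvap (ENSMUSG00000034845, chr8:71497765-71511752, minus strand) was not called in any comparison. It was measured at 12.3 ± 2.2, 10.1 ± 0.854, 10.2 ± 2.56 and 9.0 ± 1.49 CPM (SD, n = 5 each) in vehicle contralateral, vehicle peri-infarct, HPBCD contralateral and HPBCD peri-infarct tissue, and all groups overlapped. Its log2 fold change was -0.29 (95% interval -0.57 to -0.002, adjusted p = 0.143) between regions in vehicle mice, -0.18 (-0.55 to 0.19, adjusted p = 0.391) in HPBCD mice and -0.18 (-0.46 to 0.1, adjusted p = 0.32) with treatment in peri-infarct tissue.

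In contralateral tissue the treatment changed no member past the threshold. The log2 fold changes were -0.28 (Tm4sf1), -0.27 (Plvap), -0.17 (Vwf), -0.1 (Pecam1), -0.1 (Slc2a1), -0.084 (Cdh5), -0.075 (Mfsd2a), -0.05 (Cldn5), 0.17 (Ocln) and 0.2 (Abcb1a), with adjusted p of at least 0.716, and no member had an unadjusted p under 0.05. Their median was -0.09, beside -0.007 over all genes. Of all 15469 genes, 0.00% were called higher and 0.00% lower by edgeR, 1224 had an unadjusted p under 0.05 and 1.51% had groups that did not overlap. DESeq2 called 51 genes there and no member.

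Whether the regions differed more in HPBCD than in vehicle mice was tested by the interaction of region and treatment. It was positive and past the threshold for Tm4sf1 (log2 1.52 ± 0.25 SE, adjusted p = 0.0123) and Cdh5 (1.06 ± 0.25, adjusted p = 0.0202), 2 of 10 members, where 5.03% of 16758 genes were called higher and 4.38% lower. For Abcb1a it was 0.91 ± 0.29 (adjusted p = 0.055) and for Vwf 0.85 ± 0.34 (adjusted p = 0.107), and neither passed. Abcb1a passed with DESeq2 (adjusted p = 0.0268), with limma voom (0.0198), and without vehicle peri-infarct replicate 3 (0.024), vehicle contralateral replicate 4 (0.0332) or HPBCD peri-infarct replicate 1 (0.0357) or 2 (0.0219). Vwf passed with limma voom (0.0128) and without vehicle peri-infarct replicate 3 (0.0121). With the replicate number as a block, Slc2a1 passed as well (adjusted p = 0.0442, against 0.208 without it). Without HPBCD contralateral replicate 3 or 4, Tm4sf1 (1.46 and 1.55) and Cdh5 (1.09 and 1.05) stayed past the threshold. Ocln, Slc2a1, Mfsd2a, Cldn5, Pecam1 and Plvap had interactions of 0.47, 0.35, -0.37, 0.1, 0.22 and 0.1 (log2), none past the threshold. The median over the members was 0.41, beside 0.01 over all genes. Markers of other cells had called interactions too, higher in 4 of 8 fibroblast and meninges genes (median 2.51), 4 of 5 ependymal genes (1.97) and 2 of 10 pericyte and smooth muscle genes (0.84), and lower in 3 of 6 neuron genes (-0.66). Without HPBCD contralateral replicate 3 these counts were 5, 3, 3 and 3, and without replicate 4 they were 1, 3, 2 and 1, and their part in the members' interactions was not tested. The treatment and region comparisons share libraries, so their values are given side by side and are not independent of each other.

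To set the members beside other genes of the same cells, the mean log2 CPM of 15 pan-endothelial genes (Tie1, Tek, Kdr, Flt1, Eng, Emcn, Erg, Sox17, Sox18, Robo4, Icam2, Egfl7, Cd34, Clec14a and Ly6c1) was taken from each library. That mean was 3.7 ± 0.31 in vehicle contralateral, 3.38 ± 0.25 in vehicle peri-infarct, 3.7 ± 0.13 in HPBCD contralateral and 3.43 ± 0.15 in HPBCD peri-infarct tissue (log2 CPM, SD, n = 5 each). None of the 15 rose in any comparison, and 2 fell between regions in vehicle mice and 5 in HPBCD mice, with medians of -0.34 and -0.28 (log2), where 9.70% and 24.3% of all genes were called lower. With treatment in peri-infarct tissue none was called in either direction (median 0.061). The gene of this list that fell most between regions was Cd34, a surface glycoprotein of endothelium and blood progenitors, by 0.71 ± 0.14 (log2, SE, adjusted p = 0.00768) in vehicle and 0.84 ± 0.12 (7.17e-05) in HPBCD mice.

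Relative to that mean in the same library, Cldn5 stood at 2.35 ± 0.1, 2.39 ± 0.16, 2.34 ± 0.077 and 2.41 ± 0.1 (log2 difference, SD, n = 5) in vehicle contralateral, vehicle peri-infarct, HPBCD contralateral and HPBCD peri-infarct tissue, and thus varied least between groups. Pecam1 stood at 0.82 ± 0.13, 0.96 ± 0.15, 0.77 ± 0.22 and 1.06 ± 0.049. Tm4sf1 went from -0.31 ± 0.33 to 0.69 ± 0.36 in vehicle mice and from -0.53 ± 0.17 to 1.86 ± 0.23 in HPBCD mice, contralateral first. Cdh5 stood at 1.97 ± 0.34 in HPBCD peri-infarct tissue and between 0.74 and 1.07 in the other groups, Abcb1a at 2.76 ± 0.35 against 1.42 to 1.72, Vwf at 1.73 ± 0.22 against 0.61 to 1.04, and Ocln at 0.44 ± 0.2 against -0.38 to -0.15. Mfsd2a stood at -0.053 ± 0.23 there and between 0.16 and 0.42 in the others. Leaving out HPBCD contralateral replicate 3 or 4 moved a mean of that group by at most 0.11. These differences are a description, with no test of their own.

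**Figure D3:**
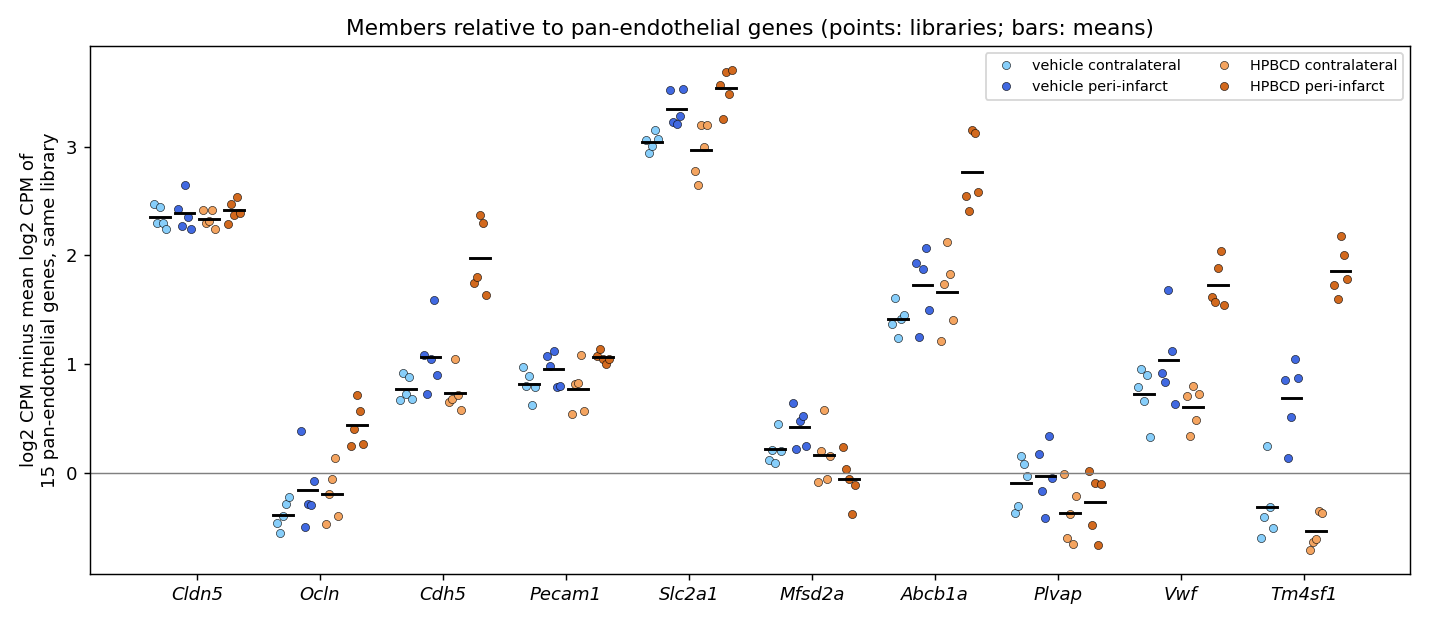
Level of each gene relative to 15 pan-endothelial genes, as log2 CPM minus their mean log2 CPM in the same library (y axis), for the 20 libraries in 4 groups. Points are libraries and bars are group means. Cldn5 group means lie between 2.34 and 2.41, whereas Tm4sf1 means lie between -0.53 and 1.86.

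Most pairs of members had a positive correlation within groups. Over the 20 libraries, after each group's mean was taken off, the Pearson correlations were above 0 in 43 of the 45 pairs of members, had a median of 0.49 and ran from -0.1 (Ocln and Plvap) to 0.89 (Cldn5 and Pecam1), with 0.88 for Cdh5 and Abcb1a and 0.83 for Cldn5 and Vwf. Plvap was the member least like the rest, at -0.1 to 0.39 with the other members. Among 11765 other genes, those most like Cldn5 in this sense were Tek (0.93), Slco1a4 (0.89) and Adgrf5 (0.88). Those most like Vwf were Ttyh1 (0.88), Mgat4b (0.85) and Clec14a (0.85), and those most like Plvap were Gm14597 (0.92), Ndufa11 (0.9) and Fkbp2 (0.9). The points share library depth, dissection and tissue makeup, and these values are a description.

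Other barrier genes were counted in lists of the same kind (the plot of other endothelial genes). Bulk tissue does not show which cells made their RNA. Over all genes, 30.3% were called higher between regions in HPBCD mice, 10.5% in vehicle mice and 12.4% with treatment in peri-infarct tissue. The shares called lower were 24.3%, 9.70% and 9.00%, and the counts of every list below stand beside these. Of 8 further junction genes, 6 rose and 1 fell between regions in HPBCD mice (median 0.98), 3 rose in vehicle mice (0.15) and 4 rose with treatment in peri-infarct tissue (0.5). F11r, the junctional adhesion molecule JAM-A, rose most between regions, by 1.64 ± 0.17 (log2, SE, adjusted p = 5.85e-06) in HPBCD mice and 1.05 ± 0.24 (0.0127) in vehicle mice, and Esam, an adhesion molecule of endothelial junctions, fell by 0.57 ± 0.14 (0.00323) in HPBCD mice. Cgnl1, the junction scaffold paracingulin, rose most with treatment (0.98 ± 0.15, adjusted p = 0.0128). Lsr, a protein of tricellular junctions, had the largest interaction of the 3 called (1.07 ± 0.3, adjusted p = 0.0341).

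Of 10 further transport genes, 4 rose and 3 fell between regions in HPBCD mice (median 0.18), 1 rose and 1 fell in vehicle mice (-0.075), and 4 rose and 1 fell with treatment in peri-infarct tissue (0.29). Slc16a1, the monocarboxylate transporter MCT1, rose by 1.47 ± 0.14 (adjusted p = 3.71e-06) between regions in HPBCD mice and by 0.57 ± 0.15 (0.0235) in vehicle mice. Slc22a8, an organic anion transporter, rose by 1.18 ± 0.22 (0.0128) with treatment, with an interaction of 1.52 ± 0.33 (0.0169). Slc19a3, a thiamine transporter, fell by 0.69 ± 0.2 (0.00946) between regions in HPBCD mice, Tfrc, the transferrin receptor, fell by 0.34 ± 0.1 (0.03) in vehicle mice, and Slc7a5, the large neutral amino acid transporter LAT1, fell by 0.38 ± 0.1 (0.0239) with treatment. These counts stand beside 30.3% and 24.3% of all genes called between regions in HPBCD mice.

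Of 11 genes of the Wnt signalling that builds the barrier, 5 rose between regions in HPBCD mice (median 0.33), 2 in vehicle mice (0.12) and 3 with treatment (0.26), and none fell. Of all genes, 30.3%, 10.5% and 12.4% were called higher in these comparisons. Lrp5, a Wnt coreceptor, rose by 1.54 ± 0.17 (adjusted p = 8.93e-06) between regions in HPBCD mice and by 0.66 ± 0.22 (0.0487) in vehicle mice. Adgra2, which brain endothelium needs to answer Wnt7, rose by 1.09 ± 0.2 (0.0128) with treatment, and it was the only gene of this list with a called interaction (1.21 ± 0.26, adjusted p = 0.0167). Of 4 caveolae genes, 3 rose between regions in HPBCD mice (median 0.86) and 3 with treatment (0.72). Cavin1, a coat protein of caveolae, rose by 1.47 ± 0.17 (1.21e-05) and 1.23 ± 0.2 (0.0128) in these comparisons, with an interaction of 1.27 ± 0.26 (0.0156), and Cav1, caveolin-1, was the gene that rose between regions in vehicle mice (0.42 ± 0.13, adjusted p = 0.0396).

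Of 10 endothelial activation genes, 7 or 8 could be tested, and 4 rose and 2 fell between regions in HPBCD mice (median 0.68), 2 rose and 2 fell in vehicle mice (-0.0038), and 3 rose and 1 fell with treatment (0.57). Icam1, an adhesion molecule for leukocytes that other cells make too, rose by 3.11 ± 0.26 (adjusted p = 1.68e-06) between regions in HPBCD mice and by 1.8 ± 0.36 (0.00692) in vehicle mice. Angpt2, which destabilises vessels, rose by 1.81 ± 0.29 (0.0128) with treatment, with an interaction of 2.32 ± 0.54 (0.02), from means of 2.17 ± 0.762 to 7.68 ± 2.58 CPM. Apln, the ligand apelin, fell by 0.79 ± 0.15 (0.000839) between regions in HPBCD mice, Lrg1, a secreted glycoprotein of venules, fell by 1.02 ± 0.27 (0.0235) in vehicle mice, and Ackr1, a chemokine receptor of venules, fell by 0.73 ± 0.13 (0.0128) with treatment, with the only negative called interaction of the lists (-0.5 ± 0.15, adjusted p = 0.0435), a call that was lost without HPBCD contralateral replicate 4 (0.0575). Of the arterial and venous genes, 2 of 6 rose between regions in HPBCD mice (0.36) and 2 of 7 with treatment (0.28), led in both by Ephb4, a venous receptor (1.28 ± 0.19, adjusted p = 0.000121, and 0.94 ± 0.21, 0.0177), with an interaction of 1.16 ± 0.29 (0.0234). Over all 65 genes of the 7 lists, 24 rose and 11 fell of 61 tested between regions in HPBCD mice, 9 and 5 of 61 in vehicle mice, 19 and 2 of 63 with treatment in peri-infarct tissue and 0 of 61 with treatment in contralateral tissue, beside the background given above. In the interaction, 11 of 63 were called higher and 1 lower. The list counts with treatment in peri-infarct tissue were not recounted with a library left out. Calls over all genes there ranged from 823 to 5339 when 1 library was left out. Without HPBCD contralateral replicate 3, 24 rose and 10 fell of 62 between regions in HPBCD mice, with 12 and 1 of 63 in the interaction, and without replicate 4 they were 25 and 9 of 62 and 9 and 0 of 63. Among the 15 pan-endothelial genes, 4 and 3 fell between regions without these libraries. By list, the other counts that changed were the Wnt genes that rose between regions (6 without replicate 4) and, in the interaction, junction genes and transport genes (2 each without replicate 4, against 3 each) and activation genes (2 higher without replicate 3, 0 lower without replicate 4, against 1 each).

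**Figure D4:**
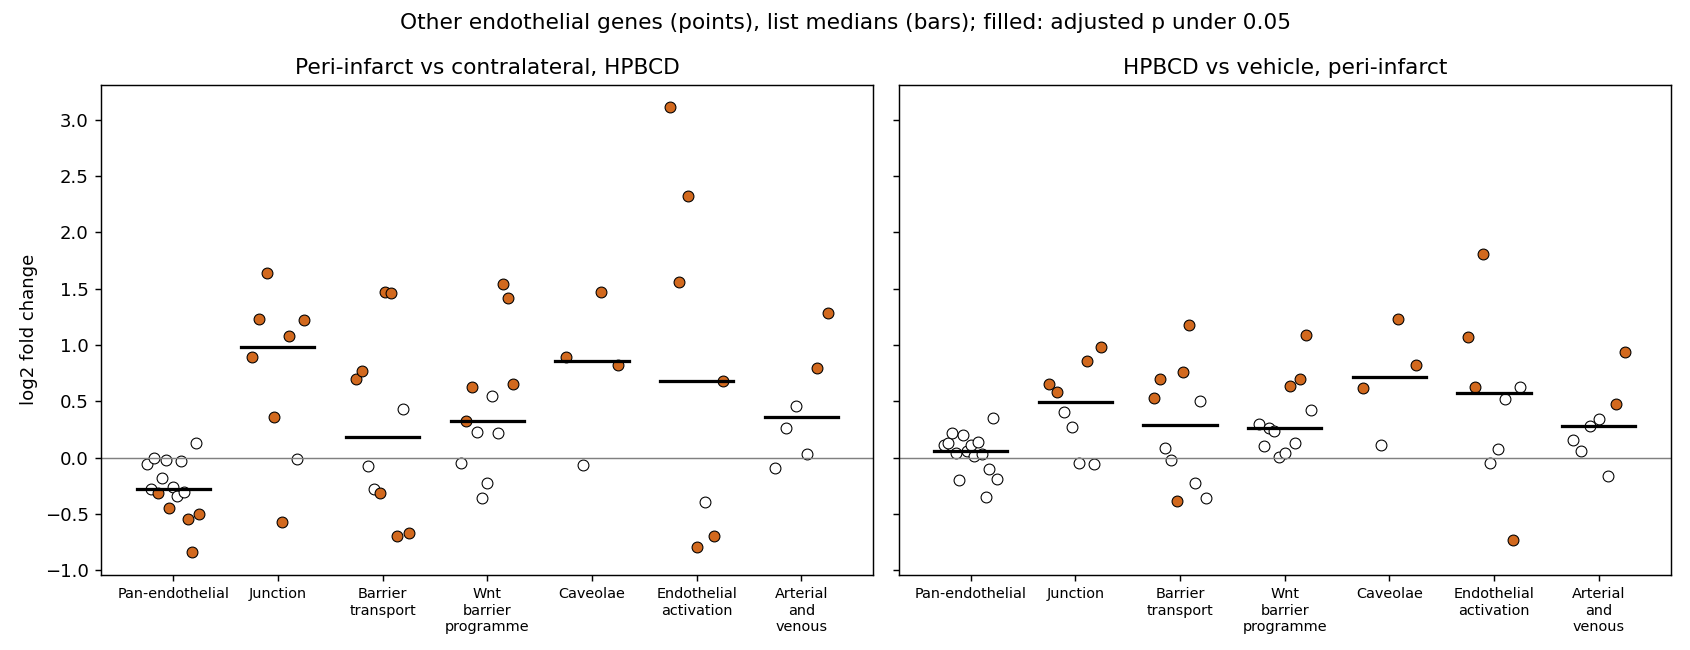
Log2 fold changes (y axis) of 61 (left) or 63 (right) tested genes from 7 lists chosen for endothelium or its barrier (x axis). The left panel compares regions in HPBCD mice and the right panel treatments in peri-infarct tissue. Bulk tissue does not show which cells made their RNA. Points are genes, bars are list medians, and filled points have an adjusted p under 0.05. Pan-endothelial genes lie near or below 0, with medians of -0.28 and 0.061, and junction genes have medians of 0.98 and 0.5.

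Markers of other cells also differed between the groups, and in vehicle mice they did so where a single member was called. The summed level of 8 fibroblast and meninges genes was 420.8 to 1144.0 CPM in HPBCD peri-infarct libraries, 110.8 to 357.7 CPM in vehicle peri-infarct libraries, 67.1 to 151.2 CPM in HPBCD contralateral libraries and 54.6 to 170.7 CPM in vehicle contralateral libraries. All 8 rose between regions in HPBCD mice, 2 in vehicle mice and 7 with treatment in peri-infarct tissue, against 30.3%, 10.5% and 12.4% of all genes. Within the HPBCD peri-infarct group the sum was highest in replicates 3 and 4 (1109.9 and 1144.0 CPM), the libraries in which Cdh5, Abcb1a, Ocln, Vwf and Tm4sf1 were also highest. Pericyte and smooth muscle genes, whose cells wrap the vessels, summed to 352.9 to 485.3 CPM in HPBCD peri-infarct libraries and to 209.9 to 323.9 CPM over the other 3 groups, and 6, 2 and 5 of 10 rose in the same 3 comparisons. The list was split, as Rgs5, Kcnj8, Abcc9 and Myh11 were called in none of the 3. Between regions in HPBCD mice these stood at -0.18, -0.0088, -0.26 and 0.28 (log2), while Anpep rose most (3.41).

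Ependymal genes summed to 70.5 to 139.4 CPM in HPBCD peri-infarct, 18.4 to 47.8 CPM in vehicle peri-infarct, 5.79 to 9.45 CPM in HPBCD contralateral and 4.08 to 33.8 CPM in vehicle contralateral libraries, with 5 of 5 tested rising between regions in HPBCD mice, 2 of 4 in vehicle mice and 3 of 5 with treatment. Choroid plexus genes rose in 1 of 7, 0 of 3 and 4 of 7 cases in these comparisons, and red cell genes in 2 of 4, 0 of 2 and 3 of 3, with red cell sums of 9.14 to 80.1 CPM in HPBCD peri-infarct and 1.58 to 17.4 CPM in the other libraries. Microglia and macrophage genes rose in 6, 5 and 1 of 6 cases and summed to 458.5 to 849.4 CPM in HPBCD peri-infarct, 248.9 to 714.2 CPM in vehicle peri-infarct and 137.8 to 179.1 CPM in contralateral libraries. Astrocyte genes rose in 2, 2 and 1 of 4 cases and summed to 2660.2 to 4735.6 CPM over all libraries. Neuron genes fell in 6, 4 and 3 of 6 cases, where 24.3%, 9.70% and 9.00% of all genes were called lower. They summed to 2279.9 to 5062.0 CPM in HPBCD peri-infarct, 4721.9 to 6718.5 CPM in vehicle peri-infarct and 7962.8 to 10531.6 CPM in contralateral libraries. Without HPBCD contralateral replicate 3, all 7 choroid plexus genes tested and 3 of 4 red cell genes rose between regions in HPBCD mice, and without replicate 4 it was 1 of 8 and 1 of 4. Platelet genes rose there in 0 of 3 cases, and in 1 of 3 without replicate 3. The part of these cells in the members' results was not tested.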

How the data were processed

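Total RNA from 20 pieces of mouse brain was sequenced, paired-end, after preparation with a stranded mRNA kit. Per the labels and the study's methods, the authors trimmed the reads with Trimmomatic 0.32, aligned them with STAR 2.5.2b to GRCm38 and counted them per gene with htseq-count, and the deposited values are raw counts per gene and library. The annotation release and strand setting of the counting are not given in the sources used here, so reads of overlapping genes on opposite strands may not be separable. Lines that name no gene (no feature 4.39 to 9.5% of reads, ambiguous 3.94 to 8.03%, not unique 16.6 to 24.3%) were left out. Gene symbols, positions and exon lengths came from GENCODE M21, which matched 98.16% of gene identifiers.

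Counts were tested with edgeR 4.0.16 in R 4.3.3 (TMM scaling, filterByExpr, quasi-likelihood F test, Benjamini-Hochberg adjustment over all genes tested, threshold 0.05), separately for each pair of groups and over all 20 libraries for the interaction. CPM were scaled by TMM over all 20 libraries, and log2 CPM used a prior count of 2. Standard errors are the log2 fold change divided by the root of F. On simulated counts with 200 genes changed by a fold of 2, the fit recovered 77% for region in vehicle, 76% for region in HPBCD, 75.5% for treatment in peri-infarct, 83% for treatment in contralateral tissue and 57.5% for the interaction. Of its calls, 3.8% to 6.7% were false. In the data, 3195 genes were called between regions in vehicle mice and 8764 in HPBCD mice, so these shares describe the simulated setting only. Alternatives were RLE and upper-quartile scaling, DESeq2 1.42.0, limma 3.58.1 (voom with quality weights), no filter, all groups in 1 fit, a block for the replicate number and leaving out each library. Deposited file names give equally numbered contralateral and peri-infarct libraries 1 shared identifier, which was taken to mark the mouse. The sample labels hold only the number, and the values alone would not show the pairing, since deviations from the group means correlated by 0.088 on average over 10 pairs, with 4 over 0.1.

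The members and all lists were chosen with earlier results of these data known. All members are named in every comparison. Of each list of other endothelial genes, the called gene with the most positive and the most negative log2 fold change is named. For Cldn5, Plvap and Vwf, the 3 most correlated genes with a mean of at least 5 CPM are named. The libraries of a group come from separate mice as far as the names show, and p-values measure the spread between them. The main region and interaction tests treated both pieces of a mouse as separate, and only the fits with the replicate block paired them.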

Additional observations from a re-analysis of the deposited data

Results flagged for a closer look

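In 4 of the 40 sets of 5 libraries (10 members in 4 groups), 1 library lay far from the other 4 by Dixon's criterion, which chance alone meets in about 1 in 20 sets. Slc2a1 was lowest in vehicle peri-infarct replicate 4, at 83.5 CPM. Mfsd2a was highest in vehicle contralateral replicate 2, at 19.6 CPM. Vwf was highest in vehicle peri-infarct replicate 3, at 40.9 CPM, and this library moved its treatment difference across the threshold. Tm4sf1 was lowest in vehicle peri-infarct replicate 2, at 13.4 CPM.

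The region difference was larger in HPBCD than in vehicle mice by the test of the interaction for Tm4sf1 (log2 1.52) and Cdh5 (log2 1.06).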

How the results depend on the processing

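The number of members called was 1 (region in vehicle), 7 (region in HPBCD), 5 (treatment in peri-infarct tissue), 0 (treatment in contralateral tissue) and 2 (interaction). With limma voom it was 2 for region in vehicle and 5 for the interaction, and the cause was not tested. With 1 library left out it was 0 to 1, 5 to 7, 3 to 6, 0 and 2 to 4. For treatment in peri-infarct tissue it was 3 when replicate 2 of the vehicle peri-infarct group was left out, and likewise for HPBCD peri-infarct replicate 3 or 4, and 4 without vehicle peri-infarct replicate 3 (interaction). With the replicate number as a block, the counts were 1 and 7 for the regions and 3 for the interaction, which added Slc2a1, and the block changed no other call of a member.

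Signs turned only for differences near 0 that were not called. The Vwf region difference in vehicle mice was -0.16 with limma voom and -0.03 with the replicate block. The Pecam1 region difference in HPBCD mice was -0.0011 with RLE scaling, -0.00076 with DESeq2, -0.014 with limma voom and -0.049 without the filter. The Plvap region difference in HPBCD mice was 0.039 with limma voom. With 1 library left out, the region differences in vehicle mice ranged from -0.21 to 0.0038 for Ocln, -0.14 to 0.12 for Cdh5, -0.12 to 0.054 for Slc2a1, -0.15 to 0.15 for Abcb1a and -0.28 to 0.22 for Vwf, and the Pecam1 difference in HPBCD mice from -0.029 to 0.093. Treatment differences ranged from -0.037 to 0.22 for Cldn5 in peri-infarct tissue, and in contralateral tissue from -0.16 to 0.04 for Cldn5, -0.23 to 0.0014 for Pecam1, -0.17 to 0.077 for Cdh5, -0.13 to 0.035 for Mfsd2a and -0.27 to 0.018 for Vwf.

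Other calls that changed were those of Slc2a1 with treatment in peri-infarct tissue (limma voom, adjusted p = 0.0409), Cldn5 between regions in vehicle mice (limma voom, 0.0412), Vwf with treatment (DESeq2 0.0478, limma voom 0.00773, all groups in 1 fit 0.0347), Ocln between regions in HPBCD mice (RLE 0.0531, limma voom 0.0663, no filter 0.107), Slc2a1 in the same comparison (DESeq2 0.0526, no filter 0.133) and the Slc2a1 interaction (limma voom 0.0293). The calls over all genes were 3195, 3471 and 1577 for region in vehicle, treatment in peri-infarct tissue and interaction, and with limma voom they were 5065, 6012 and 4110, with DESeq2 2514 for the interaction. With 1 library left out, the calls for treatment in peri-infarct tissue ranged from 823 (without HPBCD peri-infarct replicate 3) to 5339 (without replicate 2 of that group) those for region in vehicle from 2000 to 3920 and those for the interaction from 529 to 3121. With 5 mice a group, 95% intervals of members not called between regions in vehicle mice reached from -0.72 (Cldn5) to 0.64 (Vwf), and differences up to these limits could be missed. No unoperated tissue was analysed here.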
